A study of Mus musculus with 16 samples.

Results

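Of the 54532 genes in the count table, 9 belong to a compact set of TGF-beta genes and were taken by symbol: the ligands Tgfb1, Tgfb2 and Tgfb3, the latency protein Ltbp1, the receptors Tgfbr1, Tgfbr2 and Tgfbr3, and the feedback genes Smad7 and Skil. All 9 were found and all 9 passed the filter on low counts. They were followed through 16 libraries from mouse colorectal tumours, in 8 groups of 2. Each group was an MSI or a CIN tumour in a C57BL/6 mouse that had received dendritic cells carrying MSI or CIN DNA, as free cytosolic DNA or as micronuclei, which are small membrane-bound bodies holding DNA outside the main nucleus.

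Every mouse carried a colon tumour grown from 500000 MC38 cells, a murine colon cancer line derived from a C57BL/6 animal, placed under endoscopic view in the descending colon. MSI stands for microsatellite instability and CIN for chromosomal instability. The labels describe 1 line of each kind, so the type of instability and any other difference between these lines cannot be told apart. All mice also received bone marrow derived dendritic cells, exposed for 30 minutes to 2 µg of DNA with a lipid transfection reagent and given by intraperitoneal injection on days 1, 6 and 12, before the tumours were taken on day 15. No library from mice given untreated dendritic cells was analysed here. The series description says that RNA of 3 biological replicates was combined, without saying if every library is a separate pool. The p-values therefore measure the spread between libraries, part of which may be technical.

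TGF-beta is secreted in a latent form, bound to its own propeptide and to a latent TGF-beta binding protein that anchors it in the matrix. Once released, it binds the type II receptor Tgfbr2, which activates the type I receptor Tgfbr1, and SMAD proteins then carry the signal to the nucleus. In colorectal tumours the pathway is known for restraining epithelial growth, for inducing matrix genes in fibroblasts and for limiting T cell activity. Smad7 and Skil are both induced by the signal and both oppose it.

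Promoters are shown for the ligand with the highest and the ligand with the lowest level. Also shown are those of Ltbp2 and of the ligand-processing protease Furin. Ltbp2 had the largest fall in the latent TGF-beta binding protein family, although it does not itself bind latent TGF-beta. Sequences are the 250 bases before the gene start from RefSeq (GRCm38.p6), 5′ to 3′ on the gene's strand. Capitals mark 3 motifs on either strand. The first is the Smad-binding motif, with the letters CAGAC. The second is the GC box, spelled GGGCGG, and the last is the TATA box, spelled TATAAA. None of these overlapped another.

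Tgfb1, chr7:25686752-25687001, plus strand: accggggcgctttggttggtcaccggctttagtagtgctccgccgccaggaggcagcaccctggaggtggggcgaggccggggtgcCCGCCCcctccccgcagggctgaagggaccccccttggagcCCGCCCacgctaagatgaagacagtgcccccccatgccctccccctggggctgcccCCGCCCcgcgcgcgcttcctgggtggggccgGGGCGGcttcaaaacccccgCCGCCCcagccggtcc
Tgfb2, chr1:186705990-186706239, minus strand: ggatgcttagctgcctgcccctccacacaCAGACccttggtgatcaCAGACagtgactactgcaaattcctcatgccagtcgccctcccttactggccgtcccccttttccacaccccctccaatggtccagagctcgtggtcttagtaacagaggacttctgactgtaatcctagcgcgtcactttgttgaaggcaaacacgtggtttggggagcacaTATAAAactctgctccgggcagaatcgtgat
Ltbp2, chr12:84876492-84876741, minus strand: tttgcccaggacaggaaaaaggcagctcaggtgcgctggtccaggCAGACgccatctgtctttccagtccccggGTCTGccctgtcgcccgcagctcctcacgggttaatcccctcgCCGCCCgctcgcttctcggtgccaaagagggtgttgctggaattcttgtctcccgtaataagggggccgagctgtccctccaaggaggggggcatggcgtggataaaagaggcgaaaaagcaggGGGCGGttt
Furin, chr7:80405437-80405686, minus strand: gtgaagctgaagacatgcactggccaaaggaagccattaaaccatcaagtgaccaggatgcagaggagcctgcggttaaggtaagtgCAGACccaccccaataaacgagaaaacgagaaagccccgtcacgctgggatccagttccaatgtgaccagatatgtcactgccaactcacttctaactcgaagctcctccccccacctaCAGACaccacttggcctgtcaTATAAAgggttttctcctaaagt

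The Tgfb1 window was 75.2% G and C, held 5 GC boxes and held neither CAGAC nor TATAAA. The Tgfb2 window was 53.6% G and C, with CAGAC at positions -221 and -204 from the gene start, and 1 TATA box. CAGAC stood at -205 and -176 in Ltbp2, which also held 2 GC boxes, and at -163 and -44 in Furin, which held 1 TATA box. Across the 32851 promoter windows of the table, 42.2% held CAGAC, 32.7% GGGCGG and 12.4% TATAAA, so each motif is common. The table matched 5 of the 9 genes (Tgfb1, Tgfb2, Tgfbr1, Tgfbr2 and Ltbp1), and 3 of those 5 held CAGAC. A match is a description of letters and not a site of binding.

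Tgfb1 had the highest mean level of the 3 ligands per unit of gene length in both tumour types, and Tgfb2 the lowest. On the FPKM scale (counts scaled by gene length and a single total for each library, as deposited), Tgfb1 averaged 9.48 ± 1.56 in MSI tumours and 15.9 ± 2.88 in CIN tumours (SD, n = 8 each). Tgfb3 averaged 8.0 ± 2.71 FPKM in MSI tumours and 7.90 ± 1.30 FPKM in CIN tumours. Tgfb2 averaged 1.1 ± 0.443 FPKM in MSI tumours and 1.20 ± 0.333 FPKM in CIN tumours. Of the FPKM summed over the 3 ligands, Tgfb1 made up 51.5% ± 3.43 in MSI tumours and 63.3% ± 6.69 in CIN tumours. The share of Tgfb3 was 42.0% ± 6.51 in MSI tumours and 31.8% ± 5.80 in CIN tumours.

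Ltbp1 had the highest FPKM of the 9 genes in both tumour types, at 16.7 ± 4.31 in MSI tumours and 16.9 ± 3.28 in CIN tumours. In MSI tumours the mean FPKM of Tgfbr3 (12.0), Smad7 (11.6), Tgfbr2 (11.3), Skil (10.2), Tgfb1 (9.48), Tgfbr1 (9.14) and Tgfb3 (8.0) lay within each other's spread from one gene to the next. In CIN tumours Smad7 (16.3 FPKM) and Tgfb1 (15.9 FPKM) stood within its spread. Below them came Skil (12.8 FPKM), Tgfbr1 (11.5 FPKM), Tgfbr2 (9.60 FPKM), Tgfbr3 (8.87 FPKM) and Tgfb3 (7.90 FPKM), each within the spread of the one before it except Skil, which stood below Tgfb1 by more than the larger SD. Tgfb2 was last in both tumour types, below the lowest library of each other gene.

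**Figure D1:**
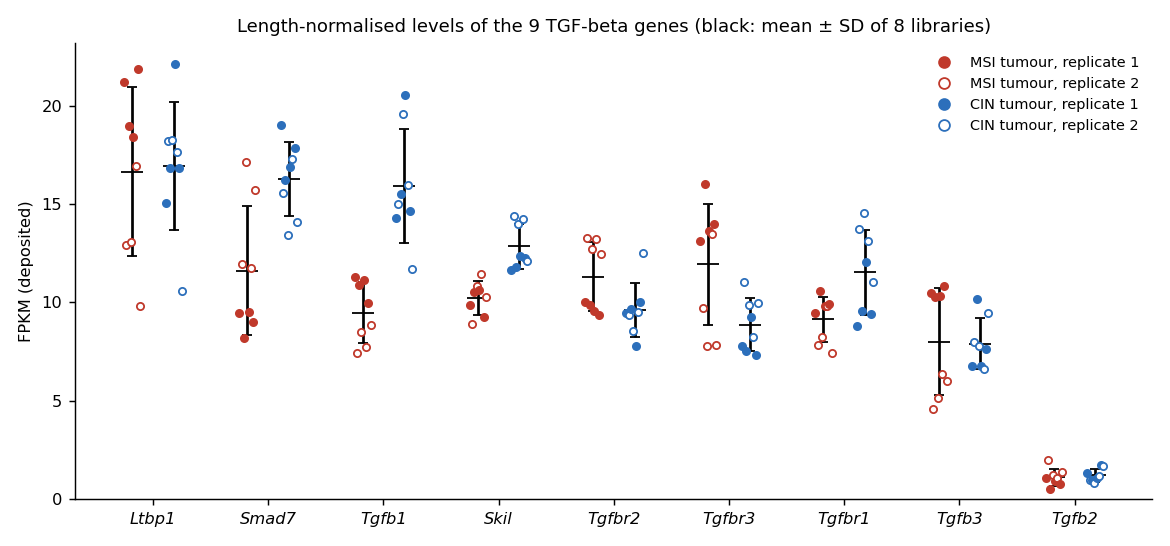
Deposited FPKM of the 9 TGF-beta genes in 8 MSI (red) and 8 CIN (blue) tumour libraries, ordered by mean level, with filled points for replicate 1, open points for replicate 2 and bars for mean ± SD. Tgfb2 lies between 0.503 and 1.98 FPKM in MSI tumours and between 0.811 and 1.71 FPKM in CIN tumours, under every other gene.

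The tumour comparison asked how the pathway differed between the MSI and the CIN line, over all DNA treatments. Tgfb1, Smad7 and Skil were lower in MSI tumours, by 1.71-fold, 1.47-fold and 1.30-fold, and none of the 9 was higher. In the background of 18777 genes tested with edgeR's quasi-likelihood test at a Benjamini-Hochberg adjusted p under 0.05, 5.8% were called, with 2.32% higher and 3.48% lower in MSI tumours. The median log2 fold change was -0.18 over the 9 genes and 0.06 over all genes tested. Levels below are CPM, counts scaled to a common library size with TMM factors, and a log2 fold change is MSI minus CIN, with its standard error.

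Among the ligands, Tgfb1, which acts on immune cells, fibroblasts and epithelium alike, ranged from 35.1 to 58.6 CPM in MSI tumours, with a median of 48.0, and from 59.5 to 110.3 CPM in CIN tumours, with a median of 79.2. The 8 MSI libraries all lay below the 8 CIN libraries, although the highest MSI value and the lowest CIN value were close. Without overlap between the tumour types stood 1.23% of all genes tested on the higher side and 1.88% on the lower side. The log2 fold change of Tgfb1 was -0.77 ± 0.15 (edgeR adjusted p = 0.0150), and the MSI mean was lower in 4 of 4 pairs of groups with the same DNA. Leaving out 1 library raised the adjusted p to 0.0538 (edgeR, without MSI tumour, MSI micronuclei, replicate 2), to 0.0550 (without CIN tumour, MSI free DNA, replicate 2) or to 0.05002 (without CIN tumour, CIN free DNA, replicate 2), and the call was then lost.

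Tgfb3, the isoform known for its role in palate and mesenchyme development, ranged from 14.5 to 39.7 CPM in MSI tumours (median 28.4) and from 23.0 to 35.2 CPM in CIN tumours (median 26.6). The MSI libraries lay on both sides of the CIN libraries. Its log2 fold change was 0.00 ± 0.25 (edgeR adjusted p = 0.998). Tgfb2, the isoform with the lowest affinity for the type II receptor in the absence of the coreceptor Tgfbr3, ranged from 3.11 to 10.7 CPM in MSI tumours (median 6.12) and from 4.90 to 9.86 CPM in CIN tumours (median 6.74). Its log2 fold change was -0.18 ± 0.20 (edgeR adjusted p = 0.590). Tgfb2 rested on 48 to 160 counts a library, and a difference of that size was within the spread between libraries.

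Ltbp1, which anchors latent TGF-beta in the matrix, ranged from 96.0 to 248 CPM in MSI tumours (median 185.5) and from 111 to 247 CPM in CIN tumours (median 185.9). Its log2 fold change was -0.04 ± 0.22 (edgeR adjusted p = 0.924). The tumour types covered nearly the same range.

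Of the receptors, none passed the test. The type I receptor Tgfbr1, the kinase that phosphorylates SMAD proteins, ranged from 45.4 to 73.7 CPM in MSI tumours (median 62.7) and from 57.5 to 99.1 CPM in CIN tumours (median 78.2). The MSI mean was below the CIN mean in 4 of 4 pairs of groups, while single libraries overlapped, and the log2 fold change was -0.37 ± 0.15 (edgeR adjusted p = 0.187). The type II receptor Tgfbr2, which binds the ligand first, ranged from 79.3 to 107 CPM in MSI tumours (median 90.6) and from 67.9 to 103 CPM in CIN tumours (median 79.8), with a log2 fold change of 0.19 ± 0.10 (edgeR adjusted p = 0.277). Tgfbr3, or betaglycan, which presents ligand to Tgfbr2, ranged from 47.7 to 112 CPM in MSI tumours (median 86.8) and from 47.7 to 74.6 CPM in CIN tumours (median 60.1). Its log2 fold change was 0.40 ± 0.21 (edgeR adjusted p = 0.297), and 5 of the 8 MSI libraries lay above every CIN library. With the smooth muscle score as a covariate Tgfbr3 passed the threshold, at a log2 fold change of 0.54 (edgeR adjusted p = 0.0261).

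Both feedback genes were lower in MSI tumours. Smad7, an inhibitory SMAD that blocks the type I receptor, ranged from 39.5 to 72.7 CPM in MSI tumours (median 47.4) and from 63.2 to 86.1 CPM in CIN tumours (median 77.9). Of the MSI libraries, 2 reached into the CIN range, both of replicate 2. The log2 fold change was -0.55 ± 0.14 (edgeR adjusted p = 0.0482), and the call was lost in 14 of the 16 fits that left out 1 library, with adjusted p up to 0.170. Skil, which encodes the SMAD corepressor SnoN, ranged from 80.6 to 109.9 CPM in MSI tumours (median 97.5) and from 113 to 144 CPM in CIN tumours (median 122.9), with no overlap. Its log2 fold change was -0.38 ± 0.08 (edgeR adjusted p = 0.0236), and the call was lost in 10 of those 16 fits, with adjusted p up to 0.0857.

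**Figure D2:**
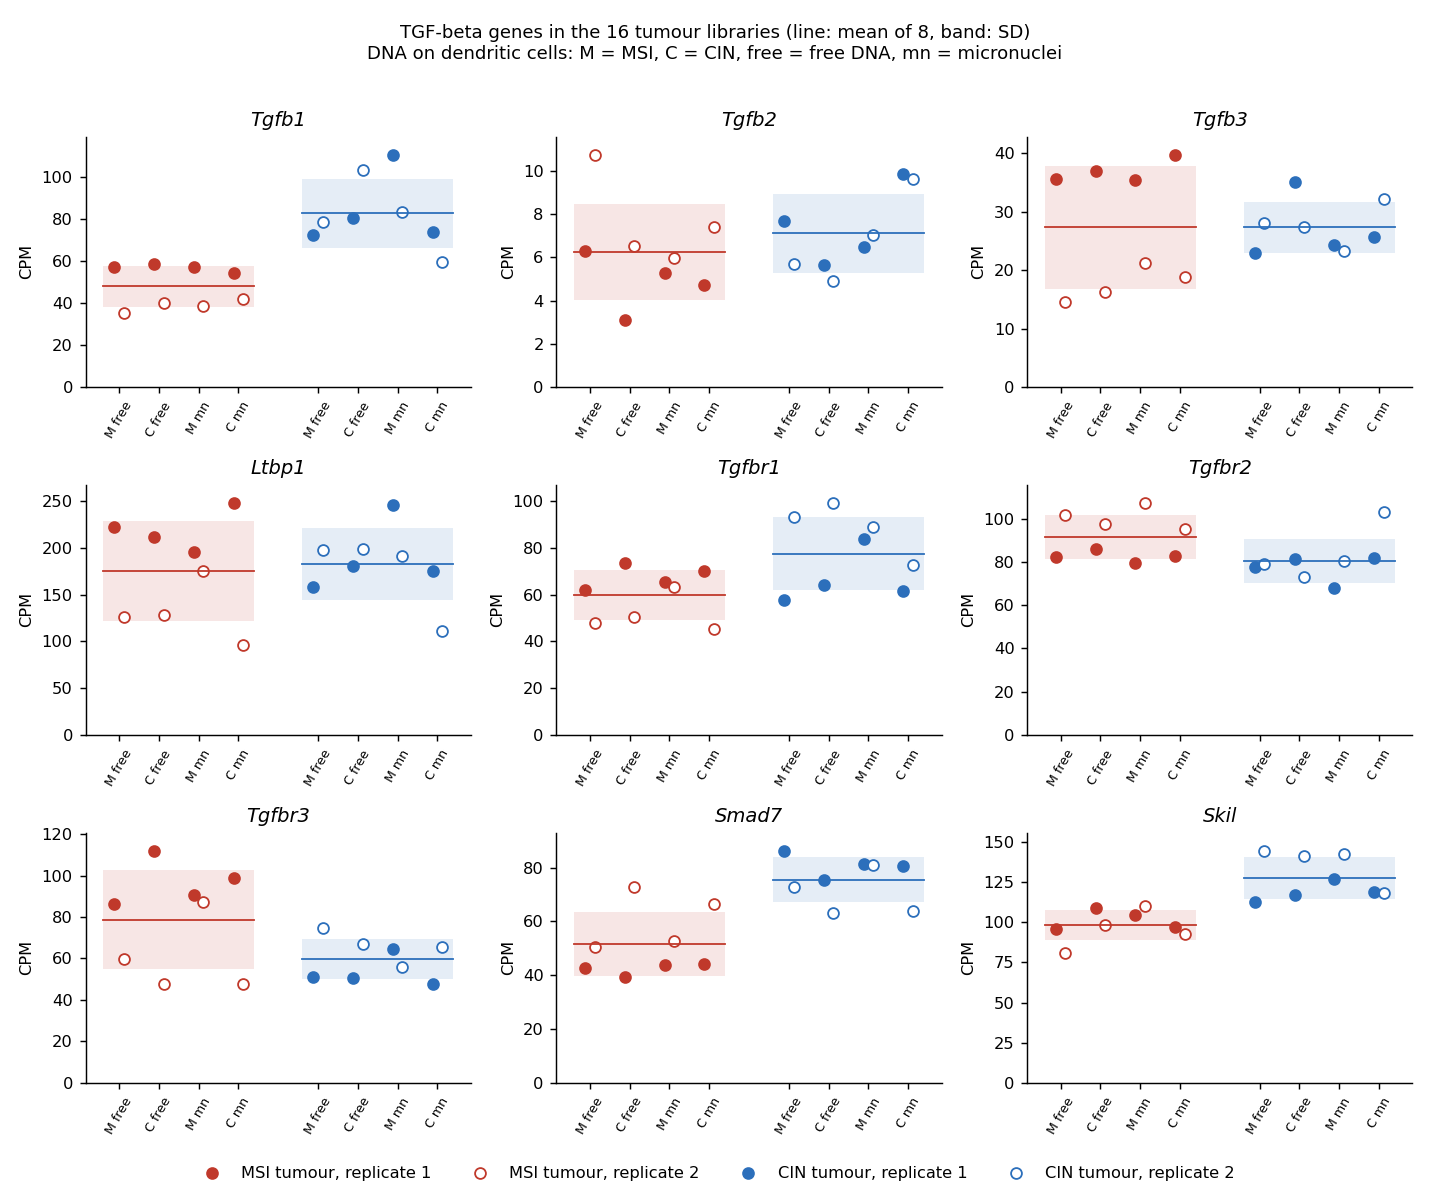
CPM of each of the 9 genes in every library, MSI tumours (red) left of CIN tumours (blue), by the DNA on the dendritic cells; filled points are replicate 1, open points replicate 2, lines are means of 8 libraries and bands their SD. Tgfb1 and Skil do not overlap between the tumour types, and in MSI tumours Tgfb1 and Tgfb3 are lower in each replicate 2 library than in each replicate 1 library.

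The other genes of the pathway were read from lists of named members. These lists were chosen with earlier results of these data known, so counts from them are a description. Over all genes tested, 3.48% were called lower and 2.32% higher in MSI tumours. Of 14 genes of latency and activation, 13 were tested, 4 were lower and 0 were higher in MSI tumours, with a median log2 fold change of -0.40. Ltbp2, a matrix protein of the latent TGF-beta binding protein family that does not itself bind latent TGF-beta, ranged from 36.1 to 128 CPM in MSI tumours (median 84.4) and from 330 to 632 CPM in CIN tumours (median 522). The highest MSI library lay far below the lowest CIN library, and the log2 fold change was -2.61 ± 0.30 (edgeR adjusted p = 9.5e-04). Ltbp3 averaged 81.8 ± 23.2 CPM in MSI tumours and 190.1 ± 28.6 CPM in CIN tumours (SD, n = 8 each), a log2 fold change of -1.21 ± 0.18 (edgeR adjusted p = 0.0042). Ltbp4 averaged 416 ± 162 CPM in MSI tumours and 1076 ± 284 CPM in CIN tumours, a log2 fold change of -1.35 ± 0.26 (edgeR adjusted p = 0.0142). Ltbp3 and Ltbp4 do bind latent TGF-beta, so the family fell in 3 of its 4 genes while Ltbp1 did not pass the test. Whether the change in Ltbp1 differed from theirs was not tested.

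Furin, a protease that cuts the TGF-beta precursor, ranged from 126 to 173 CPM in MSI tumours (median 150.9) and from 184 to 269.6 CPM in CIN tumours (median 240.4), without overlap. Its log2 fold change was -0.63 ± 0.10 (edgeR adjusted p = 0.0053). Itgav, the integrin chain shared by the receptors that release active TGF-beta, averaged 119.9 ± 30.0 CPM in MSI tumours and 192 ± 35.1 CPM in CIN tumours and did not pass the test (log2 fold change -0.67 ± 0.18, edgeR adjusted p = 0.0529).

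Among 8 other receptors and coreceptors, none was called, and their median log2 fold change was 0.13. Of 13 SMADs and SMAD regulators, 12 were tested and none was called, with a median log2 fold change of -0.07. Smad2, Smad3 and Smad4, which carry the signal, had log2 fold changes of -0.03 ± 0.11, -0.07 ± 0.11 and -0.14 ± 0.08. The transducing SMADs thus gave small differences with small errors, and no call.

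Of 35 target genes, 7 were lower and 0 were higher in MSI tumours, with a median log2 fold change of -0.32. Over all genes tested, 3.48% were called lower and 2.32% higher, and this list too was chosen with earlier results known. Col1a1, the main chain of type I collagen, ranged from 216 to 501 CPM in MSI tumours (median 359.5) and from 681 to 1197 CPM in CIN tumours (median 915), with no overlap and a log2 fold change of -1.39 ± 0.12 (edgeR adjusted p = 2.6e-04). The other collagen chains in the list were not called. Col1a2 had a log2 fold change of -0.18 ± 0.22 and Col3a1 of 0.56 ± 0.30. The cytokine Il11 averaged 2.26 ± 0.711 CPM in MSI tumours and 5.65 ± 1.87 CPM in CIN tumours, a log2 fold change of -1.31 ± 0.19. The metalloprotease Adam19 averaged 38.1 ± 5.29 CPM in MSI tumours and 76.3 ± 10.1 CPM in CIN tumours, a log2 fold change of -0.997 ± 0.11. The transcription factor Klf10 averaged 86.9 ± 14.2 CPM in MSI tumours and 128.5 ± 23.4 CPM in CIN tumours, a log2 fold change of -0.56 ± 0.11. Junb and Pdgfb were also lower, and are named here because their values were called, outside the rule for named genes.

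Leaving out 1 library ended the Ltbp4 call without MSI tumour, MSI micronuclei, replicate 2 (edgeR adjusted p = 0.0538) and without CIN tumour, MSI free DNA, replicate 2 (edgeR adjusted p = 0.0504). Klf10 lost its call in 7 of the 16 such fits (edgeR adjusted p up to 0.0746), Junb in 13 (up to 0.151) and Pdgfb in 10 (up to 0.0805). Junb also lost it with DESeq2 size factors (edgeR adjusted p = 0.0524) and Pdgfb with no filter on low counts (edgeR adjusted p = 0.0844).

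Other standard targets did not pass edgeR's test with all libraries and 1 mean per group. Pmepa1, a feedback inhibitor of SMAD signalling, averaged 101.8 ± 20.4 CPM in MSI tumours and 125.8 ± 8.11 CPM in CIN tumours (log2 fold change -0.32 ± 0.10, edgeR adjusted p = 0.0998). Tgfbi, a secreted matrix protein, averaged 424 ± 127 CPM in MSI tumours and 624 ± 84.0 CPM in CIN tumours (log2 fold change -0.56 ± 0.19, edgeR adjusted p = 0.117). Ctgf, now called Ccn2, averaged 22.7 ± 5.15 CPM in MSI tumours and 24.1 ± 5.99 CPM in CIN tumours (log2 fold change -0.09 ± 0.17, edgeR adjusted p = 0.757). Pmepa1 was called by DESeq2 (adjusted p = 0.0281), with a replicate block in edgeR (adjusted p = 0.0344) and without MSI tumour, MSI free DNA, replicate 1 (edgeR adjusted p = 0.0325). Tgfbi was called by DESeq2 (adjusted p = 0.0339), with a replicate block (edgeR adjusted p = 0.0439), without MSI tumour, CIN free DNA, replicate 1 (edgeR adjusted p = 0.0305), with the colon epithelium and skeletal muscle scores as covariates (edgeR adjusted p = 0.0441) and with the smooth muscle score (edgeR adjusted p = 0.0360). The contractile targets Acta2 and Tagln had positive log2 fold changes of 1.26 and 1.06 without a call. They are also smooth muscle genes, and all 8 smooth muscle markers had positive log2 fold changes too. Whether smooth muscle content bears on these values was not tested. Cdkn2b, Nox4, Postn and Id1 were among other targets with positive values and no call, while the median of the target list was negative. Col1a1, Col1a2 and Col3a1 also stand in the fibroblast marker list, where Col1a1 was the 1 of 8 called, against 5.8% of all genes tested.

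**Figure D3:**
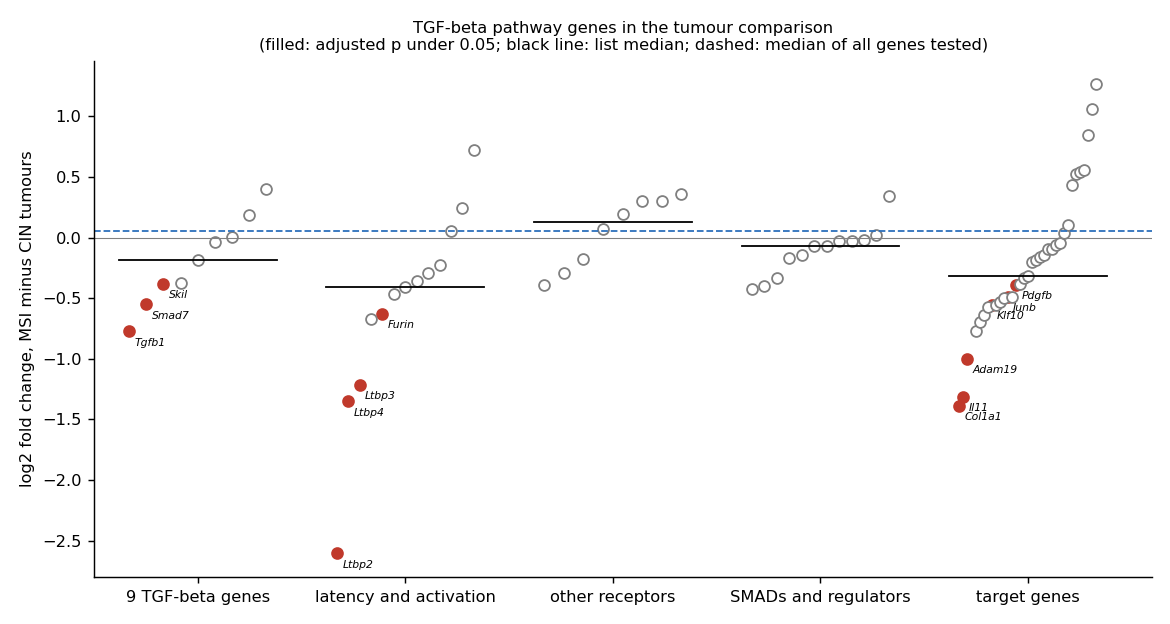
Log2 fold change (MSI minus CIN tumours) of the 9 genes and of 4 further lists of TGF-beta pathway genes (1 target gene is not drawn); filled red points passed an adjusted p of 0.05, black lines are list medians and the dashed line is the median of all genes tested, 0.06. All called genes lie below 0, with Ltbp2 the lowest at -2.61.

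In MSI tumours several of the 9 genes also differed with the replicate number, in 4 of 4 groups. Tgfb1 had 54.4 to 58.6 CPM in the 4 replicate 1 libraries and 35.1 to 41.7 CPM in the 4 replicate 2 libraries. Tgfb3 had 35.5 to 39.7 CPM in replicate 1 and 14.5 to 21.3 CPM in replicate 2, and Ltbp1 had 196 to 248 CPM in replicate 1 and 96.0 to 175 CPM in replicate 2. Smad7 and Tgfbr2 ran the other way, with 39.5 to 44.1 CPM of Smad7 in replicate 1 and 50.6 to 72.7 CPM in replicate 2, and 79.3 to 86.0 CPM of Tgfbr2 in replicate 1 and 95.2 to 107 CPM in replicate 2. These splits were seen in the values and were not tested. The share of all genes that split in this way was not counted. Over all genes tested, the differences between replicate numbers went together in all 6 pairs of MSI groups (r 0.40 to 0.80). A split by replicate number was therefore not particular to these genes.

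The summed markers of some cell types, though not of all, moved with the same split. The summed CPM of 10 colon epithelium markers, all detected, ranged over 439 to 2877 in the MSI replicate 1 libraries and over 5611 to 8855 in the MSI replicate 2 libraries. For 8 smooth muscle markers the sum ranged over 388 to 1090 CPM in replicate 1 libraries and over 1659 to 4254 CPM in replicate 2 libraries. For 6 macrophage markers the sum was lower in every replicate 2 library (534 to 650 CPM) than in any replicate 1 library (812 to 1071 CPM). The same held for leukocyte markers (309 to 335 CPM in replicate 2, 380 to 437 CPM in replicate 1) and for mesothelial and platelet markers. Fibroblast, endothelial, T cell and skeletal muscle sums overlapped between the replicate numbers. In bulk tissue, fewer cells of a type and less RNA per cell cannot be told apart. Fits with colon epithelium and skeletal muscle scores, or the smooth muscle score, as covariates were run. Calls that changed in them among the named genes are given. The part of these markers in the results was not tested further.

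Between the tumour types, colon epithelium markers summed to 439 to 8855 CPM in MSI tumours and 105 to 5970 CPM in CIN tumours, and smooth muscle markers to 388 to 4254 CPM in MSI tumours and 169 to 1609 CPM in CIN tumours. Skeletal muscle markers summed to 3.75 to 613 CPM in MSI tumours and 7.16 to 246 CPM in CIN tumours. Fibroblast markers summed to 1820 to 5221 CPM in MSI tumours and 2277 to 4599 CPM in CIN tumours. Of 8 endothelial markers, 5 were called higher in MSI tumours. Over all genes tested, 2.32% were called higher and 3.48% lower. Kdr and Emcn had positive log2 fold changes (0.57 and 0.71) and Vwf a negative value (-0.57), without a call. All 8 markers summed to 117 to 181 CPM in MSI tumours, against 78.0 to 144 CPM in CIN tumours. Mesothelial markers summed to 47.1 to 266 CPM in MSI tumours and 28.2 to 42.7 CPM in CIN tumours, with Msln called higher in MSI tumours (log2 fold change 2.13). The other 3 mesothelial markers had negative log2 fold changes without a call, of -1.29 for Wt1, -1.13 for Lrrn4 and -1.07 for Upk3b. Leukocyte markers summed to 309 to 437 CPM in MSI tumours and 288 to 406 CPM in CIN tumours, macrophage markers to 534 to 1071 CPM in MSI tumours and 590.1 to 809 CPM in CIN tumours, T cell markers to 35.6 to 60.8 CPM in MSI tumours and 35.01 to 57.4 CPM in CIN tumours, and platelet markers to 25.7 to 45.1 CPM in MSI tumours and 29.2 to 44.8 CPM in CIN tumours. No colon epithelium, smooth or skeletal muscle, leukocyte, macrophage, platelet or T cell marker was called.

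Within replicate 1 alone and replicate 2 alone, in an additive model chosen after seeing the data, the tumour difference of several genes changed. Over all genes tested, that model called 552 of 15932 in replicate 1 alone and 6093 of 16760 in replicate 2 alone. Calls in replicate 2 alone were therefore common and not particular to these genes. For Tgfb1 the log2 fold change was -0.57 in replicate 1 (edgeR adjusted p = 0.0687) and -1.06 in replicate 2 (edgeR adjusted p = 0.0109). Smad7 gave -0.94 in replicate 1 (edgeR adjusted p = 0.0151) and -0.23 in replicate 2 (edgeR adjusted p = 0.280), and Skil gave -0.24 in replicate 1 (edgeR adjusted p = 0.150) and -0.52 in replicate 2 (edgeR adjusted p = 0.0190). Tgfb3 gave 0.45 in replicate 1 (edgeR adjusted p = 0.121) and -0.66 in replicate 2 (edgeR adjusted p = 0.0174), with opposite signs. Tgfbr3 was higher in MSI tumours in replicate 1, at 0.85 (edgeR adjusted p = 0.0252), and gave -0.16 in replicate 2. Tgfbr1 gave 0.02 in replicate 1 and was lower in MSI tumours in replicate 2, at -0.77 (edgeR adjusted p = 0.0120). Tgfb1, Smad7, Skil and Ltbp2 had a negative sign in both replicate numbers, with Ltbp2 at -2.21 and -3.29.

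A further check left out the 5 libraries richest in skeletal muscle transcripts, 1 of MSI and 4 of CIN tumours, among them both CIN tumour libraries with MSI micronuclei. It used an additive model of tumour, source and form in place of 1 mean per group. With all 16 libraries, in a fit chosen after seeing the data, that additive model called 2118 of 16329 genes tested. Among them were 3 of the 9: Tgfb1, Smad7 and Skil. Without the 5 libraries the additive model called 134 of 17080 genes tested and none of the 9. Calls were thus rare over all genes, and their loss was not particular to the 9. Tgfb1 stood at -0.63 (edgeR adjusted p = 0.213), Smad7 at -0.51 (edgeR adjusted p = 0.306) and Skil at -0.24 (edgeR adjusted p = 0.408). Ltbp2 kept its call at -2.41 (edgeR adjusted p = 0.0269), as did Col1a1, Adam19 and Il11. Ltbp3, Ltbp4, Furin and Klf10 lost theirs, with adjusted p from 0.0687 for Ltbp3 to 0.367 for Klf10.

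**Figure D4:**
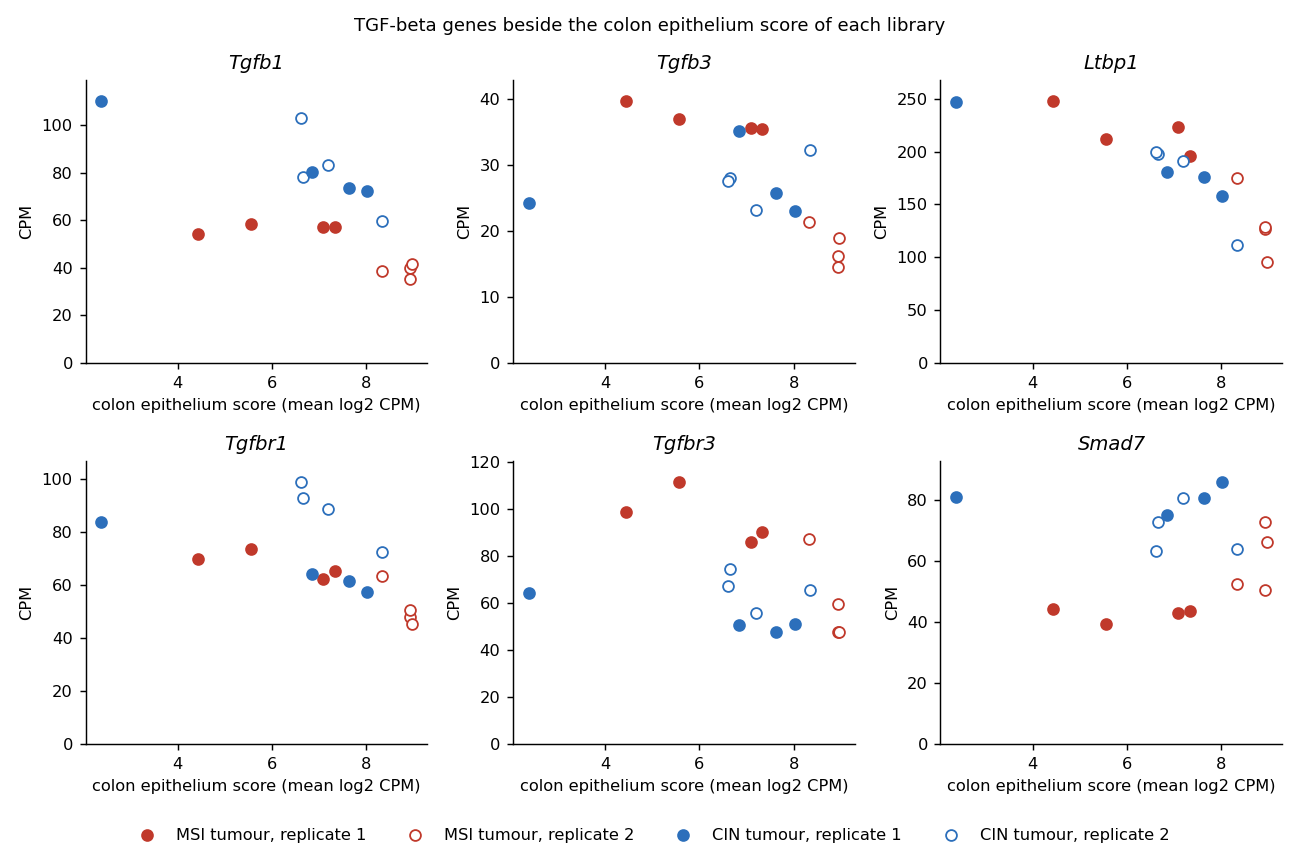
CPM of 6 TGF-beta genes against the colon epithelium score of each library (mean log2 CPM of 10 markers), MSI tumours in red and CIN tumours in blue, replicate 1 filled and replicate 2 open. The 4 replicate 2 libraries of MSI tumours have high scores and low Tgfb1 (35.1 to 41.7 CPM) and Tgfb3 (14.5 to 21.3 CPM).

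The DNA source comparison asked whether dendritic cells carrying MSI DNA or CIN DNA left a different tumour transcriptome, and the DNA form comparison whether free DNA or micronuclei did. No gene of the 18777 was called for either (0%), with 209 and 148 at an unadjusted p under 0.05 in edgeR and 0 called by DESeq2. Tgfb1 averaged 66.5 ± 24.8 CPM where the dendritic cells carried MSI DNA and 63.9 ± 21.03 CPM where they carried CIN DNA (SD over 8 libraries each), a log2 fold change of 0.04 ± 0.15. With free DNA it averaged 65.6 ± 22.4 CPM and with micronuclei 64.8 ± 23.6 CPM, a log2 fold change of 0.02 ± 0.15. The 9 genes' log2 fold changes ran from -0.18 (Tgfb3) to 0.16 (Ltbp1) for source and from -0.16 (Tgfb2) to 0.02 (Tgfb1) for form, with standard errors of 0.08 to 0.25.

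**Figure D5:**
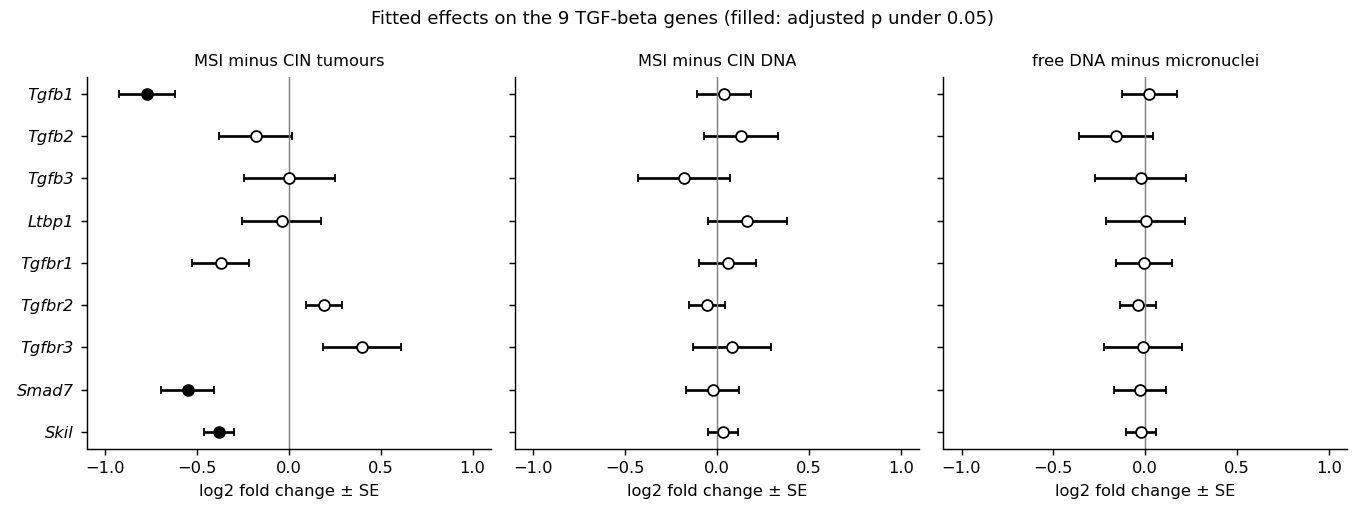
Log2 fold change ± SE of the 9 genes for MSI minus CIN tumours, MSI minus CIN DNA and free DNA minus micronuclei, over 16 libraries; filled points passed an adjusted p of 0.05. Tgfb1, Smad7 and Skil are filled in the tumour comparison, and no point is filled in either DNA comparison.

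Within each tumour type the DNA on the dendritic cells made no called difference either. For source, the 9 genes ran from -0.23 (Smad7) to 0.35 (Tgfb2) in MSI tumours and from -0.29 (Tgfb3) to 0.26 (Ltbp1) in CIN tumours. For form they ran from -0.16 (Tgfb3) to 0.13 (Tgfb2) in MSI tumours and from -0.45 (Tgfb2) to 0.11 (Tgfb3) in CIN tumours. No gene was called by edgeR in any of these comparisons (0%), nor in the 3 interactions. At an unadjusted p under 0.05 edgeR gave 151 and 315 genes for source in MSI and in CIN tumours, 126 and 153 for form, and 285, 159 and 355 for the tumour by source, tumour by form and source by form interactions. DESeq2 called 2 for tumour by source, 1 for source by form and 1 for source in CIN tumours.

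Of the 9 genes, Tgfb2 alone had an unadjusted p under 0.05 in the DNA comparisons and interactions, for source by form (halved log2 difference 0.45 ± 0.20, edgeR adjusted p = 0.862). The 16 values of Tgfb2 were low throughout. In MSI tumours they were 6.28 and 10.7 CPM with MSI free DNA, 3.11 and 6.53 CPM with CIN free DNA, 5.27 and 5.96 CPM with MSI micronuclei, and 4.73 and 7.40 CPM with CIN micronuclei. In CIN tumours they were 7.68 and 5.69 CPM with MSI free DNA, 5.63 and 4.90 CPM with CIN free DNA, 6.46 and 7.02 CPM with MSI micronuclei, and 9.86 and 9.63 CPM with CIN micronuclei. The CIN tumours with CIN micronuclei held the highest mean of the 8 groups, and the single highest library was an MSI tumour with MSI free DNA.

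The genes whose log2 CPM ran most like each of the 9 over the 16 libraries are given as a description by Pearson r. These points share library, depth and tissue makeup. They were Cct7 (0.971) and Capn2 (0.965) for Tgfb1, Col20a1 (0.823) and Smim10l2a (0.822) for Tgfb2, and AI413582 (0.942) and Stk11ip (0.931) for Tgfb3. For the receptors they were Sos1 (0.982) and Zmiz1 (0.982) for Tgfbr1, Piezo2 (0.916) and Clec3b (0.911) for Tgfbr2, and Ext1 (0.957) and Flt1 (0.941) for Tgfbr3. For the remaining genes they were Capn1 (0.926) and Sumf1 (0.891) for Smad7, Sgcd (0.954) and Dhrs9 (0.952) for Skil, and Cdv3 (0.966) and Rrp1b (0.965) for Ltbp1. Tgfb2 had the weakest likeness, at the fewest counts.

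In GRCm38 coordinates of the deposited table, Tgfb1 (ENSMUSG00000002603) lies on the plus strand at chr7:25687002-25705077, Tgfb2 (ENSMUSG00000039239) on the minus strand at chr1:186622792-186705989 and Tgfb3 (ENSMUSG00000021253) on the minus strand at chr12:86056745-86079041. Tgfbr1 (ENSMUSG00000007613) lies on the plus strand at chr4:47353222-47414931, Tgfbr2 (ENSMUSG00000032440) on the minus strand at chr9:116084293-116175360 and Tgfbr3 (ENSMUSG00000029287) on the minus strand at chr5:107106570-107289629. Skil (ENSMUSG00000027660) is on the plus strand at chr3:31095058-31122577, Ltbp1 (ENSMUSG00000001870) on the plus strand at chr17:75005568-75392512 and Smad7 (ENSMUSG00000025880) on the plus strand of chromosome 18. Exons on the opposite strand overlapped 2.14% of the exonic bases of Tgfb2 (Gm29491) and 4.82% and 7.60% of those of Tgfb3 (Gm37804 and Gm48008), and each of these overlapping genes had a median count of 0. Gm43422, on the same strand, overlapped 4.54% of the exonic bases of Tgfbr3, with a median count of 2.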

How the data were processed

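Poly-A selected RNA was sequenced. The authors deposited a gene count table and an FPKM table. The submitters' processing notes name featureCounts 1.5.0-p3, HISAT2 2.0.5 and fastp, and GRCm39. The deposited coordinates are nevertheless GRCm38, being identical to GENCODE M21 for 53499 of 54409 shared identifiers. How strand was treated in counting is not stated in the labels. The deposited FPKM equal the count over gene length and a single total for each library. That total was 0.899 to 1.076 times the library's count sum. Of the columns, 4 matched no sample and were not used. Totals ran from 11561955 to 17937501 counts a library.

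From the counts, edgeR 4.0.16 in R 4.3.3 was run with TMM scaling, filterByExpr by group (18777 of 54532 genes kept), a robust quasi-likelihood fit of 1 mean per group, and Benjamini-Hochberg adjustment over all genes at 0.05. The common biological coefficient of variation was 0.43. Contrasts were tumour type, source of the DNA, form of the DNA, their 3 interactions (halved), and source and form within each tumour type. Alternatives were DESeq2 1.42.0, its size factors, no filter, replicate blocks, marker scores as covariates and leaving out libraries. The procedure was tested on simulated data. The 2 libraries of each group differed by more than counting noise (chi-square per degree of freedom 19.4 to 213.6) and were treated as separate.

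The 9 genes and all lists were chosen with earlier results of these data known. Named beside the 9 were Ctgf, Pmepa1 and Tgfbi, the called genes of each pathway list (up to the 5 largest rises and 5 largest falls), and the 2 protein-coding genes most correlated with each of the 9. Of the target list, 1 gene is counted but not reported here. Names beyond this rule were chosen after their values were seen.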

Additional observations from a re-analysis of the deposited data

Results flagged for a closer look

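In the libraries of mice given MSI DNA, Tgfb2 in 1 library (MSI tumour, MSI free DNA, replicate 2) stood apart at 10.7 CPM, against 5.27 to 7.68 CPM in the other 7. In CIN tumours, Tgfbr2 in 1 library (CIN tumour, CIN micronuclei, replicate 2) stood apart at 102.9 CPM, against 67.9 to 81.9 CPM in the other 7. Both were found by the gap between the highest library and its neighbour relative to the range of the group. Of 54 combinations of gene and group tested in this way, 2 were found, and chance gives about 1 in 20.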

How the results depend on the processing

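The number of genes called for the tumour effect was 1089. It was 1778 with a replicate block, 3428 with a replicate block within each tumour type, 1945 with the smooth muscle score as covariate and 2295 with DESeq2. An additive model of tumour, source and form gave 2118 with all 16 libraries, 134 without the 5 libraries with most skeletal muscle RNA, 552 in replicate 1 alone and 6093 in replicate 2 alone; all but the fit without the 5 libraries were chosen after seeing the data. Leaving out 1 library gave 477 to 1758 genes, and 0 to 2 of the 9 genes against 3 with all libraries; without the 5 libraries it was 0 of 9. Of comparisons with 0 called genes, DESeq2 gave 2 for tumour by source, 1 for source by form and 1 for source in CIN tumours, and the colon epithelium and skeletal muscle scores as covariates gave 1 for source in MSI tumours.

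Tgfb3 was called lower in MSI tumours in replicate 2 alone, at -0.66. With all libraries its log2 fold change was 0.00 ± 0.25, so it had no clear direction. The log2 fold change ran from -0.87 to -0.68 for Tgfb1, -0.67 to -0.46 for Smad7 and -0.42 to -0.33 for Skil when 1 library was left out. Smad7 lost its call with DESeq2 size factors (edgeR adjusted p = 0.0708) and Skil with the colon and skeletal scores as covariates (edgeR adjusted p = 0.0514). With those covariates Tgfbr3 was called (0.55, edgeR adjusted p = 0.0478). The cause of each change was not tested.

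Same-numbered libraries deviated together in all 6 pairs of MSI groups (r 0.40 to 0.80) and in 2 of 6 pairs of CIN groups; over all 28 pairs r ran from -0.54 to 0.80, with 16 over 0.1, so the numbers go together in the MSI tumours and do not pair the libraries over all groups. With either block, 0 genes were called for DNA source or form within MSI tumours. With the replicate block 3 of the 9 genes were called, and with the block within each tumour type 4, Tgfbr1 added (-0.37, edgeR adjusted p = 0.0214). Of all 18777 genes tested, the replicate block called 1778 and the block within each tumour type 3428, against 1089 without a block. More calls were therefore seen over all genes, and the added call was not particular to this pathway.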
